A study of Mus musculus with 18 samples.

Results

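The response to RE was described over both genotypes of a mouse bone marrow study, wild type (WT) and AE9a. AE9a is a truncated product of alternative splicing of AML1-ETO, the RUNX1-RUNX1T1 fusion of acute myeloid leukaemia. The 4 groups were WT cells given DMSO, WT cells given RE, AE9a cells given DMSO and AE9a cells given RE, with 3 RNA-seq libraries in each. These 12 of the 18 libraries were taken by their genotype and treatment labels, with no use of measured values, and every gene that could be tested was included. All were cKit+ bone marrow cells, so DMSO, the solvent, is the shared reference within each genotype. The study set out to follow AE9a progenitor self-renewal under pharmacological inhibition of WDR5 and MLL1, with NANOG as a suspected link. The labels do not say which of these proteins RE acts on, its dose or time, how AE9a was introduced, the strain or age of the mice, or whether replicates came from separate animals. The p-values below therefore measure the spread between these libraries, which may be technical.

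MLL1 (Kmt2a) methylates lysine 4 of histone H3 at the promoters of active genes. It works in a core complex in which WDR5 joins RBBP5, ASH2L and DPY30, and menin (Men1) tethers it to chromatin. In blood stem and progenitor cells the best known genes that depend on this machinery are the HOXA cluster and its partner Meis1, which sustain self-renewal and are shut down as cells mature.

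Libraries held 16053727 to 27207748 counted fragments. Runx1t1, which is part of the fusion, stood at 33.7 to 46.6 CPM (counts scaled to library size) in the 6 AE9a libraries and at 0 to 0.393 CPM in the 6 WT libraries, matching the labels. Kit, by which the cells were selected, was detected throughout, but it was lower in WT libraries (60.3 to 216 CPM) than in AE9a libraries (866 to 1632 CPM). Nanog had 0 fragments in all 12. Both libraries of WT replicate 2, DMSO and RE, differed from the rest of the WT libraries. Their root mean square log2 distance to WT replicates 1 and 3 was 0.90 to 1.10, against 0.372 to 0.555 among the libraries of replicates 1 and 3, and 0.574 between the pair itself. Results that rest on them are given with and without them.

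RE moved genes in both directions in both genotypes. The average RE effect, the mean of the log2 changes in AE9a and in WT cells, passed an adjusted p of 0.05 for 1725 of 15439 tested genes (11.2%), of which 1005 rose (6.51%) and 720 fell (4.66%). Most of these changes were small: the median size was 0.36 on the log2 scale among genes that rose and 0.30 among those that fell, and 158 genes rose (1.02%) and 74 fell (0.479%) by at least 2-fold. With the replicate number as a block, which removes what same-numbered DMSO and RE libraries share, 5589 genes passed (36.2%), 3174 upward (20.6%) and 2415 downward (15.6%), among them 1724 of the 1725. Without both libraries of WT replicate 2 the count was 4844 (30.9%), with 16.2% higher and 14.6% lower. Within a genotype, the same fit called 947 genes in AE9a (6.13%) and 59 in WT cells (0.382%), or 4742 (30.7%) and 2088 (13.5%) with the block. RE libraries were higher in 6 of 6 same-numbered pairs for 16.2% of tested genes and lower in 6 of 6 for 13.3%. An unadjusted p under 0.05 was reached by 4227 of the 15439 tested genes, in either direction. These shares and counts are the background for the gene lists below. The count of the average effect fell to 677, 710, 755 and 928 without AE9a DMSO replicate 1, RE replicate 2, RE replicate 3 or DMSO replicate 3, to 1126 without AE9a RE replicate 1 and to 1038 without WT RE replicate 1, and rose to 3107 without WT RE replicate 2. In these bulk samples, fewer cells of a type and less RNA per cell cannot be told apart.

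**Figure D1:**
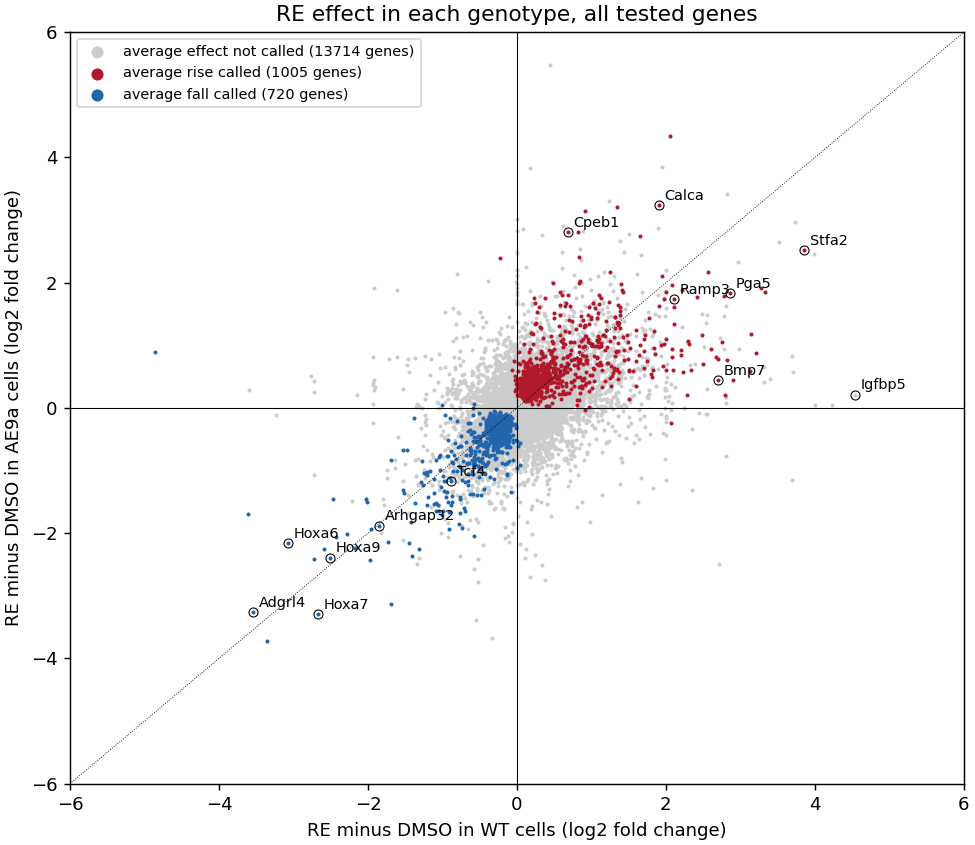
Log2 change from DMSO to RE in WT cells (x axis) against AE9a cells (y axis) for the tested genes, 1 point per gene, with genes whose average RE effect rose or fell at an adjusted p under 0.05 in colour. The 1005 genes that rose and the 720 that fell lie mostly in the quadrants where both genotypes moved the same way, and 1 gene lies outside the axes. Coloured genes were selected on the mean of both plotted values, which by itself favours those quadrants.

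Genes of the HOXA cluster fell in cells of both genotypes. Of 21 genes listed as HOXA and MEIS1 regulators, 17 passed the filter on low counts. Of these 0 rose and 7 fell, against 4.66% of all tested genes that fell. The 7 were Hoxa3, Hoxa5, Hoxa6, Hoxa7, Hoxa9, Eya1 and Mecom. By unadjusted p, 12 were under 0.05, all lower, and DESeq2 called 8, all lower. The median change of the 17 genes was -1.09 on the log2 scale, -1.21 in AE9a and -0.80 in WT cells, against 0.03 over all tested genes. In 6 of 6 pairs 11 of 17 were lower, against 13.3% of all tested genes. With the replicate block 12 fell, against 15.6% of all tested genes, and without WT replicate 2 the number was 10, against 14.6%. The genes Hoxa2, Hoxa10, Hoxa11 and Hoxa13 had too few fragments to be tested.

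Hoxa7, a homeobox transcription factor gene (chromosome 6, 52191471 to 52198757, minus strand, GRCm39), stood at 6.35, 5.23 and 5.12 CPM in AE9a DMSO libraries 1, 2 and 3 and at 0.851, 0.359 and 0.496 CPM under RE. In WT cells its levels were 8.03, 6.52 and 7.65 CPM under DMSO and 1.46, 0.517 and 1.47 CPM under RE. All 6 RE libraries lay below all 6 DMSO libraries, with an average log2 change of -2.98 ± 0.26 (SE, 12 libraries; adjusted p = 0.000613). Hoxa9, a homeobox gene central to myeloid leukaemia (chromosome 6, 52200077 to 52203169, minus strand), went from 3.80, 4.28 and 3.56 CPM to 0.624, 0.807 and 0.771 CPM in AE9a cells and from 3.26, 5.13 and 3.67 CPM to 0.561, 0.840 and 0.706 CPM in WT cells. Its fall was nearly the same in the 2 genotypes, -2.39 and -2.51 on the log2 scale, for an average of -2.45 ± 0.16 (adjusted p = 0.00015). Hoxa6 (chromosome 6, 52181838 to 52185652, minus strand) stood at 1.55, 1.35 and 1.05 CPM in AE9a DMSO cells and 0.341, 0.359 and 0.165 CPM under RE, and went from 1.85, 1.90 and 1.78 CPM to 0.168, 0.259 and 0.217 CPM in WT cells. Its average change was -2.62 ± 0.21 (adjusted p = 0.000487), again with no overlap between RE and DMSO libraries. Hoxa5 fell by 2.21 and Hoxa3 by 1.80 on the log2 scale (adjusted p = 0.00367 and 0.0037). Hoxa3 is annotated over a span that includes Hoxa4, Hoxa5 and Hoxa6, so how fragments were divided among these 4 genes is uncertain. Toward the start of the cluster, Hoxa4 changed by -0.77 and passed with the replicate block (adjusted p = 0.0418) but not without it (0.154).

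Promoter windows of the 3 HOXA genes with the strongest falls are shown because these neighbours moved together. Each is the first RefSeq window listed for the gene on mouse build GRCm38.p6, from 250 bases before to 50 bases after an annotated start. It is written 5′ to 3′ on the gene's strand, with CpG dinucleotides in capitals. The windows are chr6:52218524-52218823 for Hoxa7, chr6:52227321-52227620 for Hoxa9 and chr6:52208623-52208922 for Hoxa6, all on the minus strand. Their spacing differs from that of the ends of the counted gene spans given above. Some of them may therefore belong to other starts than those of the genes as counted.
Hoxa7: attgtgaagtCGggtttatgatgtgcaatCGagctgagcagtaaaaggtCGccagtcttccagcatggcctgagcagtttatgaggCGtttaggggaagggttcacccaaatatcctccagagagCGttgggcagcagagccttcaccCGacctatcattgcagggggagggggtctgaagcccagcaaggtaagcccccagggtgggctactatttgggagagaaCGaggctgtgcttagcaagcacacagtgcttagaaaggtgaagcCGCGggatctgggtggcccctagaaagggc
Hoxa9: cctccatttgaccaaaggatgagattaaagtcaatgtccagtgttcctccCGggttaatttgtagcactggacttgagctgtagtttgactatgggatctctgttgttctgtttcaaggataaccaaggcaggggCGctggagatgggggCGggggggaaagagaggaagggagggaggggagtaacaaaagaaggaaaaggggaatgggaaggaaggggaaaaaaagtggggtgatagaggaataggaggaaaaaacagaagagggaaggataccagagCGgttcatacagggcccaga
Hoxa6: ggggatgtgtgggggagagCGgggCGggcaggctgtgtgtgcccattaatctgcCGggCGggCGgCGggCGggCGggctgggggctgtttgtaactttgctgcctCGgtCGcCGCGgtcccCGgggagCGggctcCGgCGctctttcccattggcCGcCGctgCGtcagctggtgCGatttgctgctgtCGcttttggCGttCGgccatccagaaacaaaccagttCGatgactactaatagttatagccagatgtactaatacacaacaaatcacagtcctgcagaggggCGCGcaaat
The motif CG, which reads the same on both strands, occurred 9 times in the Hoxa7 window, 4 times in the Hoxa9 window and 26 times in the Hoxa6 window. Among the 11566 tested genes with such a window, 99.0% held at least 1 CG and the median was 19. The falls of these genes, 2.45 to 2.98 on the log2 scale, thus went with CpG counts in these windows on either side of that median. CpG content at the starts of the genes as counted was not examined.

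Among the partners and downstream genes of HOXA proteins, some fell and some were not called. Eya1, a transcriptional coactivator of homeobox proteins, stood at 1.45, 1.21 and 1.35 CPM in AE9a DMSO libraries, 0.397, 0.0897 and 0.275 CPM under RE, 5.33, 2.84 and 4.08 CPM in WT DMSO libraries and 0.953, 0.259 and 0.597 CPM under RE. The RE and DMSO libraries did not overlap in either genotype (-2.57 ± 0.34, adjusted p = 0.00367). Mecom, which encodes the stem cell regulator EVI1, fell by 2.14 ± 0.45 (adjusted p = 0.0168). When AE9a DMSO replicate 1 was left out its adjusted p was 0.051, above the threshold. Meis1, the DNA-binding partner of HOXA9, showed 13.1 to 14.6 CPM under DMSO and 14.6 to 16.2 CPM under RE in AE9a cells, and 18.7 to 59.5 CPM under DMSO and 12.6 to 67.5 CPM under RE in WT cells. These ranges overlapped in WT cells, and the average change was 0.10 ± 0.38 (adjusted p = 0.905), or 0.05 ± 0.10 with the block. Flt3, a cytokine receptor of early progenitors, changed by -1.09 (adjusted p = 0.0541) and passed with the block (-1.16 ± 0.16, adjusted p = 0.00062). The same was true of Mef2c, a lymphoid and myeloid progenitor factor (-0.81 ± 0.09 with the block, adjusted p = 0.000192), and Pbx3, a cofactor of HOX proteins (-0.27 ± 0.07, adjusted p = 0.0187).

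**Figure D2:**
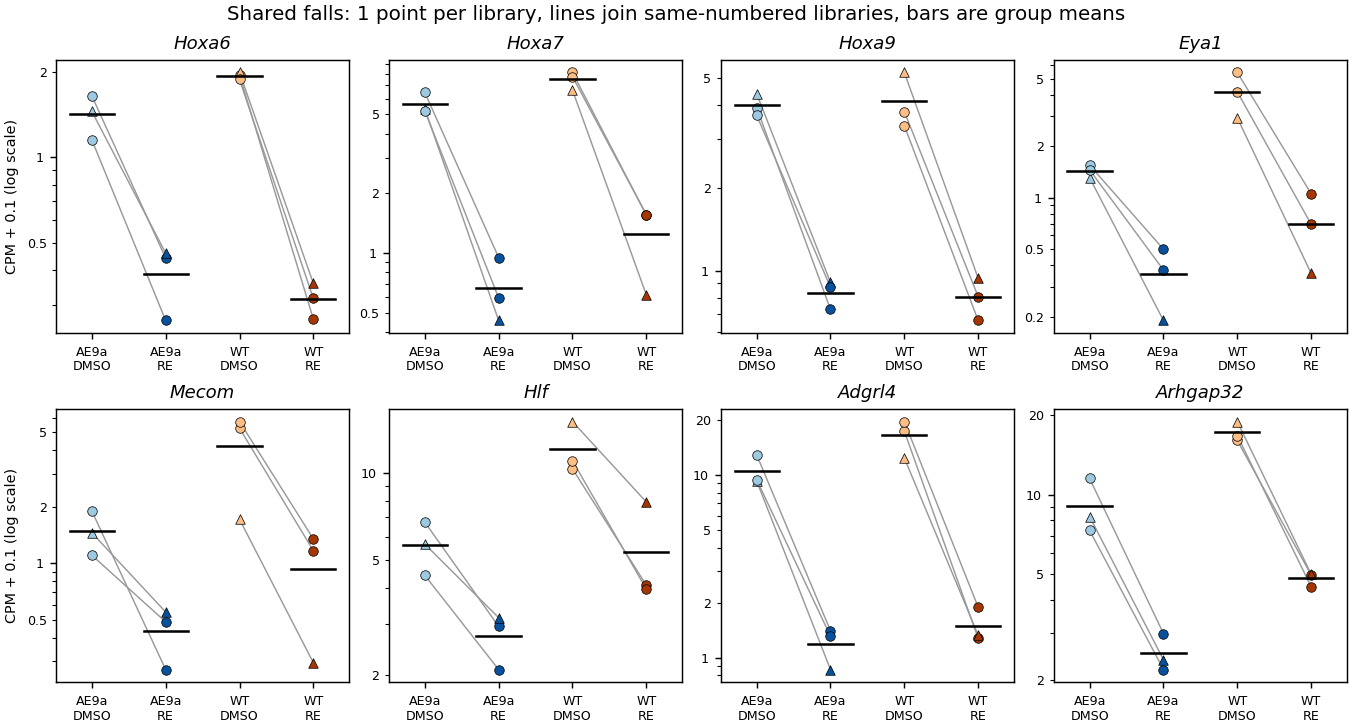
CPM plus 0.1 on a log axis in the 12 libraries for 8 genes that fell, by genotype and treatment. Circles are replicates 1 and 3, triangles replicate 2, grey lines join same-numbered DMSO and RE libraries and bars are group means. Each line runs downward, for example from 12.8 to 1.31 CPM for Adgrl4 in AE9a replicate 1.

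The deepest fall among genes with at least 5 CPM in a group was that of Adgrl4, an adhesion G protein-coupled receptor best known from endothelium (chromosome 3, 151143519 to 151250718, plus strand). It stood at 12.8, 9.19 and 9.33 CPM in AE9a DMSO libraries and 1.31, 0.762 and 1.21 CPM under RE, and at 17.3, 12.3 and 19.5 CPM in WT DMSO libraries and 1.18, 1.23 and 1.79 CPM under RE. No RE library came within reach of a DMSO library, and the falls of 3.26 in AE9a and 3.54 in WT cells gave an average of -3.40 ± 0.19 (adjusted p = 8.1e-05). Arhgap32, a GTPase-activating protein, went from 7.22 to 11.4 CPM under DMSO to 2.09 to 2.89 CPM under RE in AE9a cells and from 15.9 to 18.7 CPM to 4.40 to 4.91 CPM in WT cells. Its change was -1.88 in AE9a and -1.85 in WT cells (average -1.86 ± 0.13, adjusted p = 0.00019). Further falls were those of Rhobtb3 (-1.44 ± 0.19), a BTB domain protein, Ttpa (-1.44 ± 0.22), the tocopherol transfer protein, Ptk7 (-1.36 ± 0.17), a Wnt-linked pseudokinase receptor, Nxpe5 (-1.34 ± 0.14) and Msl3l2 (-1.31 ± 0.16). Their adjusted p-values were 0.0018 to 0.0052. These genes were named from those called and lower in 6 of 6 same-numbered pairs, so that agreement is by selection. None of these calls was lost when any 1 of the 12 libraries was left out.

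Some genes of stem and early progenitor cells were among those that fell. Hlf, a transcription factor that marks long-term stem cells, went from 6.65, 5.56 and 4.31 CPM to 2.84, 3.05 and 1.98 CPM in AE9a cells and from 10.2, 14.9 and 10.9 CPM to 3.98, 7.82 and 3.86 CPM in WT cells. The groups did not overlap within a genotype, and the average change was -1.14 ± 0.22 (adjusted p = 0.0117). Tcf4, an E-protein that drives plasmacytoid dendritic cells, went from 28.3 to 33.9 CPM to 13.4 to 15.5 CPM in AE9a cells and from 43.2 to 45.2 CPM to 23.0 to 24.6 CPM in WT cells, where WT replicate 2 lay among the others (-1.03 ± 0.06, adjusted p = 8.1e-05). Lmo2, a scaffold of stem cell transcription complexes, fell by 0.54 ± 0.10 (adjusted p = 0.012) and Cd27, a receptor of multipotent progenitors, by 1.30 ± 0.19 (adjusted p = 0.00458). Tcf4 and Cd27 are not on the stem cell list, and Tcf4 is on the dendritic and MHC class II list. Of 27 tested stem cell genes 0 rose and 4 fell, namely Hlf, Mecom, Lmo2 and Cd34, against 4.66% of all tested genes, with a median of -0.20. By unadjusted p, 1 was higher and 7 were lower, against 4227 of 15439 tested genes in either direction. With the block 10 fell, against 15.6% of all tested genes, and 5 rose, against 20.6%. Those that rose include Kit (0.61 ± 0.05, adjusted p = 6.56e-05) and Gata2 (0.32 on the log2 scale). Leaving out WT replicate 2 gave 9 that fell and 4 that rose, against 14.6% and 16.2% of all tested genes. The list's summed level did not fall in AE9a cells. It was 3591 to 4247 CPM in AE9a DMSO and 4229 to 4780 CPM in AE9a RE libraries, higher in each same-numbered pair. In WT cells it was 2085 to 3498 CPM under DMSO and 2229 to 3541 CPM under RE, where pairs disagreed.

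Of the genes that rose, the calcitonin gene and a calcitonin-family receptor subunit were both among the largest. Calca, which encodes calcitonin and its gene-related peptide (chromosome 7, 114225223 to 114236145, minus strand), stood at 0.450, 0.366 and 0.151 CPM in AE9a DMSO libraries and 3.35, 2.38 and 3.64 CPM under RE. In WT cells it went from 1.85, 1.73 and 1.84 CPM to 8.02, 5.30 and 7.06 CPM. RE libraries were all above the DMSO libraries of their genotype, and the average rise was 2.57 ± 0.22 (adjusted p = 0.000556). Ramp3, a receptor activity-modifying protein that forms receptors of this peptide family (chromosome 11, 6608507 to 6627478, plus strand), went from 1.75, 1.87 and 2.91 CPM to 5.45, 6.01 and 10.3 CPM in AE9a cells and from 1.24, 0.725 and 0.816 CPM to 5.27, 3.88 and 2.88 CPM in WT cells. Again no library of a genotype overlapped (1.92 ± 0.25, adjusted p = 0.00367).

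Pga5, a pepsinogen gene, rose mostly in level in WT cells, from 1.57, 1.505 and 1.33 CPM to 12.3, 10.3 and 9.50 CPM, while its AE9a libraries went from 0.500, 0.0366 and 0.151 CPM to 0.908, 0.986 and 0.441 CPM. The AE9a groups overlapped, 1 DMSO library lying above 1 RE library, and the average change was 2.35 ± 0.37 (adjusted p = 0.00636). Fhip1a, a subunit of an adaptor for dynein transport, rose from 0.552 to 0.769 CPM to 1.71 to 3.23 CPM in AE9a cells and from 1.74 to 2.68 CPM to 4.29 to 8.21 CPM in WT cells (1.69 ± 0.24, adjusted p = 0.00433). Stard13, a GTPase-activating protein, stood at 5.40, 9.55 and 6.47 CPM in AE9a DMSO libraries and 13.7, 18.4 and 16.4 CPM under RE. Camk2n1, an inhibitor of the kinase CaMKII, went from 1.55, 1.76 and 1.96 CPM to 5.62, 6.10 and 7.44 CPM in AE9a cells. Both genes stood at 0 to 0.102 CPM in WT DMSO libraries and at 0.112 to 0.453 CPM under RE, so their WT folds are not given. The average effect passed for both (adjusted p = 0.0093 and 0.0153). Nr4a3, a nuclear receptor induced by signalling, went from 5.70 to 6.92 CPM to 10.8 to 16.4 CPM in AE9a cells and from 1.78 to 4.88 CPM to 6.40 to 34.2 CPM in WT cells (1.68 ± 0.38, adjusted p = 0.0227). Its call was lost without AE9a DMSO replicate 1, 2 or 3 or AE9a RE replicate 3 (adjusted p = 0.05 to 0.067).

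**Figure D3:**
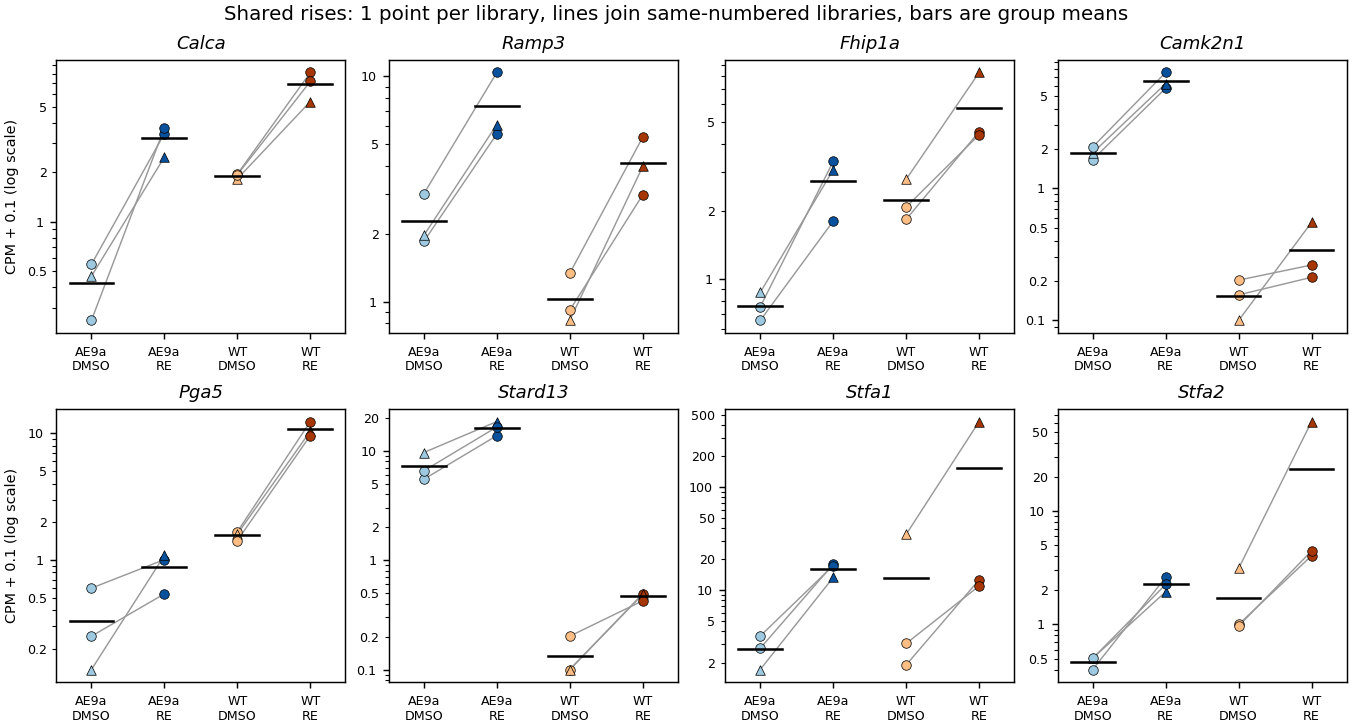
CPM plus 0.1 on a log axis in the 12 libraries for 8 genes that were higher under RE, drawn with circles for replicates 1 and 3, triangles for replicate 2, grey lines between same-numbered libraries and bars for group means. WT replicate 2 is far above the other WT libraries for Stfa1 (430 against 12.6 and 10.9 CPM under RE), and the line of every pair still rises.

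The stefin A genes, which encode small cysteine protease inhibitors of neutrophils, had some of the largest rises, and WT replicate 2 stood far above the other WT libraries for them. Stfa1 stood at 2.65, 1.61 and 3.51 CPM in AE9a DMSO libraries and 17.8, 13.2 and 17.2 CPM under RE, and at 1.80, 34.7 and 2.96 CPM in WT DMSO libraries and 12.6, 430 and 10.9 CPM under RE. Each pair rose, but WT DMSO replicate 2 lay above both other WT RE libraries, and the average change of 3.09 ± 1.05 did not pass (adjusted p = 0.0864). With the block it was 2.93 ± 0.19 (adjusted p = 3e-05), and without WT replicate 2 it was 2.47 ± 0.20 (adjusted p = 3.93e-05). Stfa2 rose by 3.19 ± 0.77 (adjusted p = 0.0273). That call was lost without any 1 of the 6 AE9a libraries or without WT DMSO replicate 1 or 3 (adjusted p = 0.056 to 0.081), and it held without both libraries of WT replicate 2 (2.36 ± 0.16, adjusted p = 2.12e-05). Stfa3 was close to 0 in WT libraries other than replicate 2, at 0 and 0 CPM under DMSO and 0.0561 and 0.271 CPM under RE, against 2.95 and 46.7 CPM in replicate 2 (3.22 ± 1.63, adjusted p = 0.235).

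These 3 genes lie close together on chromosome 16 and are near copies of each other, so fragments may be shared among them and their single values are uncertain. Their RefSeq promoter windows on GRCm38.p6 (chr16:36276898-36277197 on the plus strand for Stfa1, chr16:36408314-36408613 and chr16:36455343-36455642 on the minus strand for Stfa2 and Stfa3) are shown because the copies are so alike and Stfa2 was among the largest rises that passed. The capitals mark the longest run that all 3 windows hold.
Stfa1: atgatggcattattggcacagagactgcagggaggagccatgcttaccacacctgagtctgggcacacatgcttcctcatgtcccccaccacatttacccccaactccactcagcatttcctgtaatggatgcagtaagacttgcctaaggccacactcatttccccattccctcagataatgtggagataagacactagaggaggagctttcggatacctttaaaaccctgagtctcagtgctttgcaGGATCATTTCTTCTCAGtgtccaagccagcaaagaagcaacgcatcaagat
Stfa2: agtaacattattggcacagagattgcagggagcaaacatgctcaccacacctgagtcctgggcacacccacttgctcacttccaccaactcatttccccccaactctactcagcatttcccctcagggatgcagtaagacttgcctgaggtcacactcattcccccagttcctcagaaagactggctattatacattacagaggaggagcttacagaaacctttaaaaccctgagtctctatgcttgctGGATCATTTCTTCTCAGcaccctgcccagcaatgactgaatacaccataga
Stfa3: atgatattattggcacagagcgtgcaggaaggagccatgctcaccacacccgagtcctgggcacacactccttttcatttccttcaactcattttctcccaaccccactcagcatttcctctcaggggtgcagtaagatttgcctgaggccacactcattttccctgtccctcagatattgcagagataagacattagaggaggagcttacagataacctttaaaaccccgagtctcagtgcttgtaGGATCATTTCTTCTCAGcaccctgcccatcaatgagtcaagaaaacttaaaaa
The windows were 79.3% identical between Stfa1 and Stfa2, 81.0% between Stfa1 and Stfa3 and 80.9% between Stfa2 and Stfa3. The shared run of 17 bases, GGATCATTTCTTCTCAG, was searched on both strands and was found in 6 of 27025 mouse promoter windows (0.0222%), those of Stfa1, Stfa2, Stfa3, Stfa2l1, Csta3 and Cstdc5, all of the cystatin and stefin family.

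The genes of the WDR5 and MLL machinery were nearly level. Of 22 tested subunits 2 fell, against 4.66% of all tested genes, and 0 rose, against 6.51%, with a median of -0.01. By unadjusted p 4 were lower and 1 higher, against 4227 of 15439 tested genes in either direction, and DESeq2 called 3 lower. With the block 4 fell and 1 rose, against 15.6% and 20.6% of all tested genes. The same numbers fell and rose without WT replicate 2, against 14.6% and 16.2%. Dpy30 fell by 0.25 ± 0.07 (adjusted p = 0.0447) and Hcfc1, a host cell factor bound by these complexes, by 0.15 ± 0.04 (adjusted p = 0.0374). Each call was lost in most fits that left out 1 library, Dpy30 without any AE9a library or without WT DMSO replicate 1 or 2 or WT RE replicate 1 or 3, and Hcfc1 without any AE9a library other than DMSO replicate 2, or without WT DMSO replicate 2 or 3 or WT RE replicate 1 or 3 (adjusted p = 0.051 to 0.11). Kmt2a stood at 144 to 152 CPM in AE9a DMSO and 140 to 151 CPM in AE9a RE libraries, and at 156 to 192 and 158 to 188 CPM in WT libraries. Those ranges overlapped, and its change was 0.01 ± 0.06 (adjusted p = 0.964). Wdr5 changed by -0.04 ± 0.06 (adjusted p = 0.669) and Men1 by -0.01 ± 0.11 (adjusted p = 0.977).

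Of 26 tested genes of DNA replication 9 fell, against 4.66% of all tested genes, and 0 rose, with a median of -0.35 (-0.50 in AE9a and -0.22 in WT cells). By unadjusted p 22 were lower. With the block 25 fell, against 15.6% of all tested genes, and without WT replicate 2 the number was 23, against 14.6%. Mcm6, a subunit of the replicative helicase, stood at 328, 287 and 316 CPM in AE9a DMSO libraries, 215, 197 and 191 CPM under RE, 275, 379 and 290 CPM in WT DMSO libraries and 234, 292 and 246 CPM under RE. It was lower in all 6 pairs, with an average of -0.46 ± 0.09 (adjusted p = 0.0129), although WT RE replicate 2 lay above WT DMSO replicates 1 and 3. Pola1, the catalytic subunit of DNA polymerase alpha, fell by 0.39 ± 0.05 (adjusted p = 0.00367). These 2 calls held in all 12 fits without 1 library.

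Calls in the mitosis list depended on the block or on the handling of WT replicate 2. Over the 12 libraries without the block edgeR called 0 of 25 genes, with 6 lower by unadjusted p and 2 lower by DESeq2. With the block all 25 fell, against 15.6% of all tested genes. Without WT replicate 2 and without the block 24 fell, against 14.6%. The median was -0.30, and -0.47 in AE9a against -0.12 in WT cells. Top2a, the topoisomerase of dividing cells, stood at 606, 524 and 585 CPM in AE9a DMSO and 410, 377 and 375 CPM in AE9a RE libraries, and at 450, 760 and 503 CPM in WT DMSO and 428, 712 and 445 CPM in WT RE libraries. The difference between WT replicate 2 and the others was larger than that between WT DMSO and RE. Its average change was -0.34 ± 0.15 without the block (adjusted p = 0.191) and -0.34 ± 0.03 with it (adjusted p = 0.00012).

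Of 26 tested ribosome biogenesis genes 9 fell by small amounts, against 4.66% of all tested genes, and 0 rose, with a median of -0.22 (-0.26 in AE9a, -0.19 in WT cells). By unadjusted p 21 were lower, and 24 fell with the block, against 15.6% of all tested genes. Without WT replicate 2, 19 fell, against 14.6%, and the median was -0.27 in AE9a and -0.11 in WT cells. In that fit 24 were called lower in AE9a cells by themselves and 2 in WT cells. Nop56, a core protein of box C/D snoRNPs, fell by 0.30 ± 0.06 (adjusted p = 0.016), Wdr43, a processome subunit, by 0.30 ± 0.06 (adjusted p = 0.0112) and Nolc1, a nucleolar chaperone, by 0.29 ± 0.06 (adjusted p = 0.0121). Myc, a driver of this programme, went from 176 to 206 CPM to 138 to 161 CPM in AE9a cells and from 146 to 166 CPM to 105 to 143 CPM in WT cells. The groups did not overlap within a genotype. Its fall of 0.34 ± 0.08 (adjusted p = 0.027) was lost in 7 of 12 fits without 1 library, those without AE9a DMSO replicate 1 or 2, AE9a RE replicate 2 or 3, WT DMSO replicate 2 or WT RE replicate 1 or 3 (adjusted p = 0.053 to 0.08), and with the block it was -0.34 ± 0.04 (adjusted p = 0.000214). In the MYC and MAX network list of 12 genes Myc, Mga and Mycl fell and Mnt and Mxd1 rose. Of these 5 calls, that of Mga, a MAX partner in a repressor complex (-0.20 ± 0.04, adjusted p = 0.013), held in all 12 fits without 1 library, and each of the others was lost in 7 or more, among them those without AE9a DMSO replicate 1 or AE9a RE replicate 2 or 3.

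Some genes of early signalling and inflammation rose. Of 24 immediate early genes 5 rose, against 6.51% of all tested genes, and 0 fell (median 0.36, with 0.52 in AE9a and 0.15 in WT cells): Jun, Nr4a2, Nr4a3, Klf6 and Btg1. By unadjusted p 9 were higher and 1 was lower, with the block 17 rose, against 20.6%, and 2 fell. In the libraries other than WT replicate 2, 10 rose and 2 fell, against 16.2% and 14.6%, with medians of 0.52 in AE9a and 0.05 in WT cells. The call of Klf6 held in all 12 fits without 1 library, and the other 4 were lost in 4 to 10 of them, each without AE9a DMSO replicate 1. Klf6, a zinc finger factor, went from 176, 198 and 210 CPM to 280, 292 and 299 CPM in AE9a cells and from 218, 153 and 198 CPM to 258, 233 and 233 CPM in WT cells, without overlap within a genotype (0.46 ± 0.08, adjusted p = 0.00979). Of 22 NF-kB and inflammation genes 2 rose, a share near the 6.51% of all tested genes, and 0 fell, with 11 higher and 2 lower by unadjusted p. They were Tnf (0.28 ± 0.08, adjusted p = 0.0454) and the inhibitor Nfkbie (0.43 ± 0.10, adjusted p = 0.0235). With the block 15 rose, against 20.6% of all tested genes, and 2 fell. Without WT replicate 2 the numbers were 12 and 2, against 16.2% and 14.6% (median 0.36 over the 12 libraries). Those that rose with the block include Traf1, a TNF receptor adaptor (0.89 ± 0.08, adjusted p = 7.9e-05). The Tnf call was lost in 10 and the Nfkbie call in 5 of 12 fits without 1 library, in both cases without AE9a DMSO replicate 1 or 3, AE9a RE replicate 2 or 3 or WT RE replicate 1, and for Tnf also without AE9a RE replicate 1, AE9a DMSO replicate 2, WT DMSO replicate 2 or 3 or WT RE replicate 2 (adjusted p = 0.054 to 0.12). The 28 tested interferon response genes had 0 calls in either direction by edgeR and by DESeq2 and 0 under an unadjusted p of 0.05. With the block 14 rose, against 20.6%, and 3 fell, and without WT replicate 2 there were 2 calls, both upward, against 16.2%. Irf7, the master regulator of interferon genes, stood at 128, 122 and 47.2 CPM in AE9a DMSO and 181, 164 and 67.5 CPM in AE9a RE libraries. Each pair rose, but AE9a replicate 3 lay below the others under both treatments. Its change was 0.52 ± 0.32 without the block (adjusted p = 0.337) and 0.52 ± 0.04 with it (adjusted p = 4.2e-05).

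Changes in metabolic and organelle genes were small. For comparison with the counts that follow, 6.51% of all tested genes rose and 4.66% fell, or 20.6% and 15.6% with the block. Without WT replicate 2 the shares were 16.2% and 14.6%. In the cholesterol and fatty acid synthesis list 4 of 26 rose (Hmgcs1, Fdft1, Lss and Nsdhl) and 1 fell (Acaca), with a median of 0.12, and 15 rose and 1 fell with the block (13 and 1 without WT replicate 2). Without any 1 of the AE9a libraries these calls were lost, other than that of Hmgcs1, which held in all 12 fits. Hmgcs1, an early enzyme of the mevalonate pathway, went from 459, 471 and 501 CPM to 590, 594 and 647 CPM in AE9a cells and from 449, 396 and 445 CPM to 538, 452 and 535 CPM in WT cells. It was higher in each pair and did not overlap within a genotype (0.30 ± 0.06, adjusted p = 0.0125). Of 25 lysosome genes 5 rose, against 6.51% of all tested genes, and 0 fell (median 0.07, with 0.17 in AE9a and -0.06 in WT cells), and 10 rose and 3 fell with the block. In AE9a cells by themselves 6 rose and in WT cells 0. Those that rose on average include the calcium channel Mcoln1 (0.35 ± 0.04, adjusted p = 0.00361) and the proton pump subunit Atp6v0d1 (0.26 ± 0.03, adjusted p = 0.00367). By unadjusted p 7 lysosome genes were higher and 1 was lower, and without WT replicate 2, 9 rose and 4 fell. The call of Ctsd, the protease cathepsin D, was lost without AE9a DMSO replicate 1 or AE9a RE replicate 2 or 3 (adjusted p = 0.053 to 0.063). In the list on stress and amino acid supply 3 rose (Slc7a11, Trib3 and Slc3a2) and 3 fell (Phgdh, Shmt2 and Slc7a1), of which Slc7a11 and Phgdh held in all 12 fits and the others were lost without AE9a RE replicate 2: the cystine transporter Slc7a11 rose by 0.50 ± 0.10 (adjusted p = 0.0133) and the serine synthesis enzyme Phgdh fell by 0.37 ± 0.07 (adjusted p = 0.0136). Of 25 p53 targets 0 rose and 2 fell, while 3 were higher by unadjusted p: Sesn1 (-0.43 ± 0.08, adjusted p = 0.0101) and Xpc (-0.25 on the log2 scale), the latter lost without AE9a DMSO replicate 1 or 3, any AE9a RE library or WT RE replicate 1 (adjusted p = 0.051 to 0.057). With the block 10 rose, against 20.6% of all tested genes, and 4 fell, a share near the 15.6% of all tested genes. Cdkn1a was higher by 0.21 ± 0.03 with the block (adjusted p = 0.00115). Of 17 BCL2 family genes 2 rose, the survival factors Bcl2l2 (0.29 ± 0.06, adjusted p = 0.013) and Bcl2a1b. The latter has near-identical copies and is uncertain, and it was called in 3 of 12 fits without 1 library, those without WT RE replicate 1, 2 or 3.

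**Figure D4:**
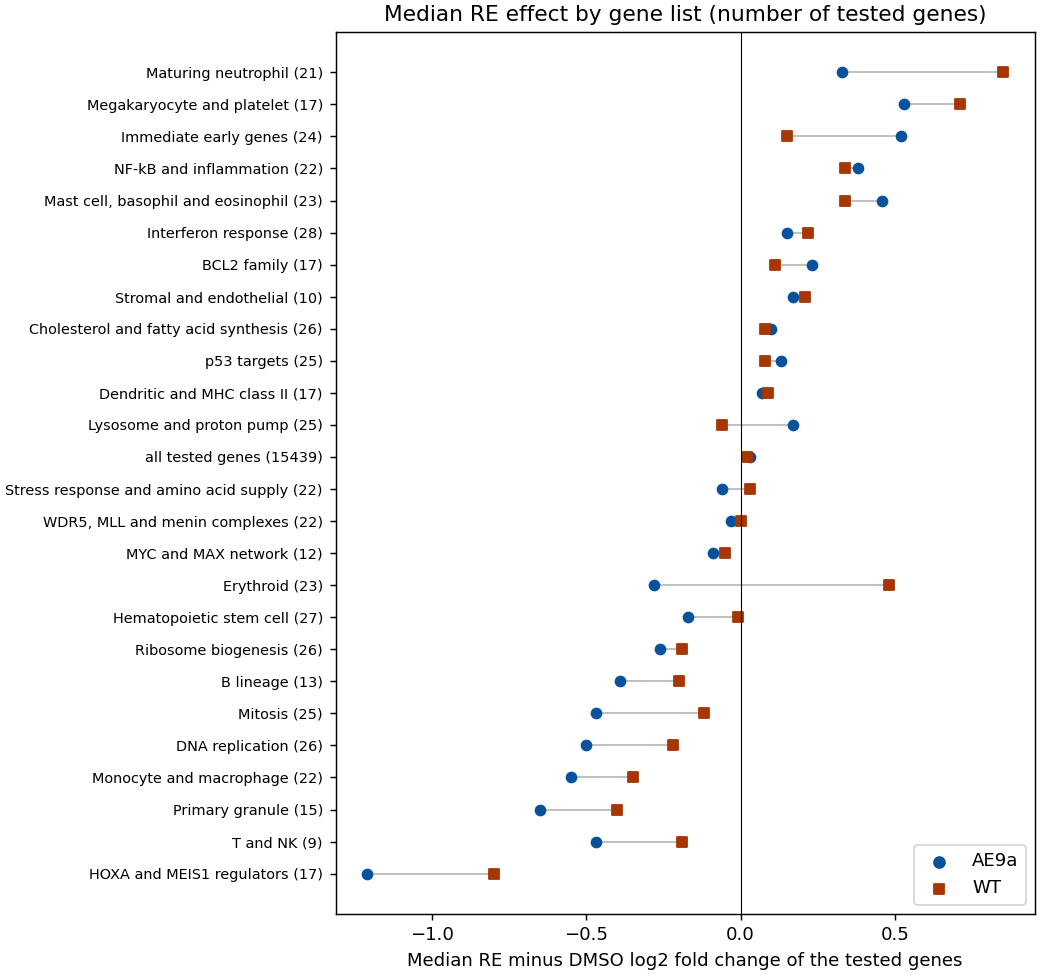
Median log2 change from DMSO to RE over the tested genes of each of the 25 gene lists, in AE9a cells and in WT cells. The HOXA and MEIS1 list lies furthest to the left (-1.21 in AE9a and -0.80 in WT cells), and the erythroid list has medians on opposite sides of 0 (-0.28 and 0.48).

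Markers of blood cell types also moved with RE, and WT replicate 2 differed most from the other libraries in these. Of the 15 primary granule genes of neutrophil precursors, 1 fell without the block, Nkg7 (-0.80 ± 0.10, adjusted p = 0.00297), a share near the 4.66% of all tested genes, and 0 rose. The list's median was -0.54, 4 were lower by unadjusted p, 10 fell with the block, against 15.6%, and 13 fell without WT replicate 2, against 14.6%. Mpo, the myeloperoxidase of those granules, stood at 1519, 1424 and 1442 CPM in AE9a DMSO and 761, 865 and 738 CPM in AE9a RE libraries, and at 1225, 4432 and 1362 CPM in WT DMSO and 619, 3028 and 717 CPM in WT RE libraries. It was lower in each of 6 pairs, but WT RE replicate 2 was above every DMSO library, and the change was -0.79 ± 0.44 without the block (adjusted p = 0.278) and -0.86 ± 0.06 with it (adjusted p = 4.3e-05). Summed over the list, the level was 5335 to 6206 CPM in AE9a DMSO, 3178 to 3651 CPM in AE9a RE, 5718 to 13080 CPM in WT DMSO and 3103 to 11580 CPM in WT RE libraries. The maturing neutrophil list had a median of 0.57, with 0.33 in AE9a and 0.85 in WT cells. Without WT replicate 2 the median was 0.32, and 0.13 in WT cells, with 9 genes higher and 3 lower, against 16.2% and 14.6%. Of its 21 genes 1 rose over the 12 libraries, Stfa2, a share near the background, and 0 fell. With the block 10 rose and 1 fell, against 20.6% and 15.6% of all tested genes. Its sum was 4053 to 4648 CPM, 4571 to 6384 CPM, 3833 to 12740 CPM and 3881 to 27250 CPM in the same order of groups. In WT cells the highest sums were those of replicate 2.

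Megakaryocyte and platelet genes had a median of 0.56 (0.53 in AE9a, 0.71 in WT cells). Of 17, 1 fell without the block, Nfe2 (-0.15 ± 0.04, adjusted p = 0.0394), a call lost in 10 of 12 fits without 1 library (adjusted p = 0.051 to 0.1), and kept without AE9a DMSO replicate 3 or WT RE replicate 2. By unadjusted p 0 were higher, while 14 rose with the block, against 20.6% of all tested genes. Without WT replicate 2, 11 rose, against 16.2%. Ppbp, a platelet chemokine, shows the spread: it stood at 16.2, 8.89 and 3.86 CPM in AE9a DMSO and 38.5, 18.3 and 13.3 CPM in AE9a RE libraries, and at 283, 1.56 and 244 CPM in WT DMSO and 421, 5.30 and 458 CPM in WT RE libraries. WT replicate 2 lay far below the others, and each pair rose (1.05 ± 0.10 with the block, adjusted p = 0.000135, and 1.01 ± 1.03 without it, adjusted p = 0.576). The list's sum was 532.3 to 676.7 CPM in AE9a DMSO, 695.1 to 863.8 CPM in AE9a RE, 828.7 to 4050 CPM in WT DMSO and 1102 to 5781 CPM in WT RE libraries. Of 23 mast cell, basophil and eosinophil genes 1 rose without the block, Mcpt2, a share near the 6.51% of all tested genes. Its call was kept in 5 of 12 fits without 1 library. With the block 10 rose and 2 fell, against 20.6% and 15.6% of all tested genes. Cpa3, the mast cell carboxypeptidase, went from 2505, 3289 and 2949 CPM to 4486, 5070 and 5362 CPM in AE9a cells and from 1340, 647 and 1503 CPM to 2233, 1108 and 2214 CPM in WT cells (0.73 ± 0.04 with the block, adjusted p = 2.05e-05, and 0.72 ± 0.23 without it, adjusted p = 0.0677).

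Of 22 monocyte and macrophage genes 4 fell, Irf8, Cx3cr1, Mrc1 and Ms4a6c, against 4.66% of all tested genes, and 1 rose, Clec10a, with a median of -0.49. With the block 13 fell, against 15.6%, and 2 rose. Without WT replicate 2, 12 fell, against 14.6%, and 2 rose. The calls of Irf8, Cx3cr1 and Ms4a6c were lost without AE9a RE replicate 2 or 3 (adjusted p up to 0.11), and those of Mrc1 and Clec10a held in all 12 fits. Mrc1, the macrophage mannose receptor, went from 92.7, 90.1 and 93.4 CPM to 52.6, 49.995 and 35.5 CPM in AE9a cells and from 344, 287 and 264 CPM to 133, 237 and 142 CPM in WT cells (-0.90 ± 0.15, adjusted p = 0.00827). The groups did not overlap within a genotype, and WT replicate 2 fell least. Clec10a, a lectin of macrophages and dendritic cells, rose by 1.24 ± 0.23 (adjusted p = 0.0104), against the direction of the list. The sum of the monocyte list was 1616 to 1749 CPM in AE9a DMSO, 1138 to 1448 CPM in AE9a RE, 1776 to 3147 CPM in WT DMSO and 1402 to 3142 CPM in WT RE libraries. Genes of other cell types were also detected. The 20 stromal and endothelial genes, of which 10 passed the filter and 0 were called by edgeR (1 lower by DESeq2, 1 higher and 1 lower by unadjusted p), summed to 95.77 to 114.1 CPM in AE9a DMSO, 62.79 to 82.97 CPM in AE9a RE, 278.4 to 345.1 CPM in WT DMSO and 264.6 to 358.3 CPM in WT RE libraries. The 21 T and NK genes, of which 9 passed the filter, summed to 359.5 to 522 CPM, 872.2 to 1102 CPM, 166.1 to 608.9 CPM and 181 to 869.3 CPM in the same order. Among the T cell receptor complex genes Cd3e had 7, Cd3d 24 and Cd3g 67 fragments in the 12 libraries together. What part the shifts in these marker lists have in the changes of other genes was not tested.

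How alike the genotypes were was described from fits of each genotype alone, which share no library. The AE9a fit called 4964 of its genes (34.5%), or 6295 (43.8%) with the block. Over 13776 genes tested in both, 72.5% changed in the same direction, and the 2 sets of log2 changes had a Pearson correlation of 0.589 and a Spearman correlation of 0.570 across genes, which are not independent replicates. Of 4793 genes called in AE9a cells alone, 4219 (88.0%) changed in the same direction in WT cells. Their median size was 0.345 on the log2 scale in AE9a cells, and in WT cells the median change in that direction was 0.158. The WT fit alone called 0 genes by edgeR, with 902 under an unadjusted p of 0.05, and 644 with the block (4.4%). Of the 614 of these that were also tested in AE9a cells, 568 (92.5%) changed in the same direction there. With the block in both fits, 482 genes were called in the same direction in both genotypes, 306 upward and 176 downward, and 14 in opposite directions. The 482 were 78.5% of the 614 WT calls and 7.94% of 6067 AE9a calls. Across all tested genes RE and DMSO libraries did not overlap in AE9a cells for 47.5% and in WT cells for 13.2%. In both genotypes at once 633 genes were higher (4.10%), 576 lower (3.73%) and 58 opposed (0.376%).

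Differences between the genotypes' responses were tested as the interaction, the log2 change in AE9a minus that in WT cells. Without the block 1 gene passed (0.00648% of those tested), with 924 under an unadjusted p of 0.05 and 100 called by DESeq2. With the block 482 passed (3.12%), with 268 values above 0 and 214 below 0, and without WT replicate 2 the count was 249 (1.59%).

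**Figure D5:**
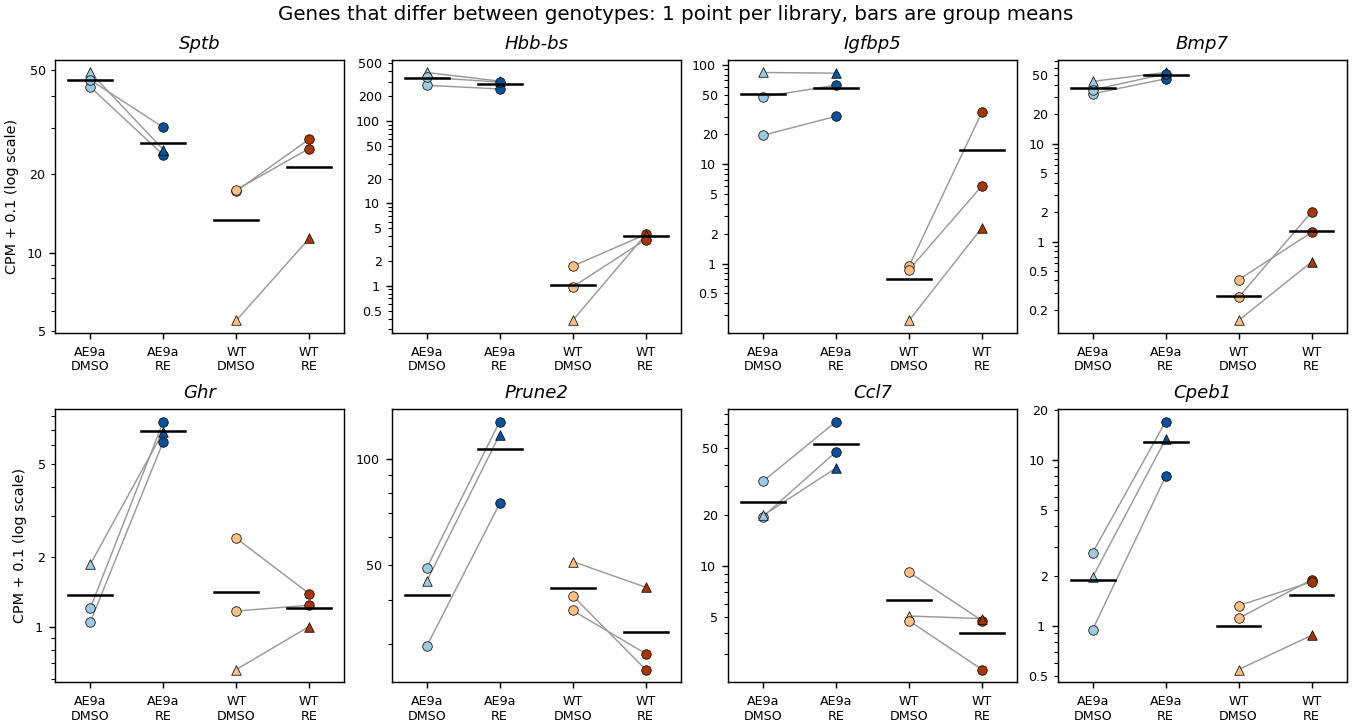
CPM plus 0.1 on a log axis in the 12 libraries for 8 genes whose RE effect differed between genotypes, drawn with circles for replicates 1 and 3, triangles for replicate 2, grey lines between same-numbered libraries and bars for group means. Lines for Sptb run downward in AE9a cells (43.0 to 23.6 CPM in replicate 1) and upward in WT cells (17.1 to 27.1 CPM).

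Red cell genes differed between the genotypes, and more of them were called with the block. Hbb-bs, an adult beta globin with near-identical copies, stood at 271, 388 and 339 CPM in AE9a DMSO and 245, 305 and 297 CPM in AE9a RE libraries, and at 1.63, 0.279 and 0.867 CPM in WT DMSO and 4.09, 4.07 and 3.53 CPM in WT RE libraries. The AE9a groups overlapped and the WT groups did not, and the blocked difference was -2.30 ± 0.32 (adjusted p = 0.0124). Sptb, the beta chain of erythrocyte spectrin, went from 43.0, 48.9 and 45.8 CPM to 23.6, 24.8 and 30.1 CPM in AE9a cells and from 17.1, 5.41 and 17.3 CPM to 27.1, 11.2 and 24.98 CPM in WT cells (-1.52 ± 0.15, adjusted p = 0.00321). Over the 23 erythroid genes the median change was -0.28 in AE9a and 0.48 in WT cells. By the blocked interaction 6 had a lower and 0 a higher value in AE9a cells, against 1.39% of all tested genes with a value below 0. Over the 12 libraries without the block edgeR called 1 lower and DESeq2 5, with 6 lower by edgeR's unadjusted p. Without WT replicate 2 and without the block 3 were lower, against 90 of 15697 tested genes with a value below 0. The summed level was 1431 to 1637 CPM in AE9a DMSO, 1079 to 1237 CPM in AE9a RE, 567.9 to 703.2 CPM in WT DMSO and 694.8 to 758.4 CPM in WT RE libraries. The average effect by contrast called 2 erythroid genes upward, Hbb-bs and the ankyrin Ank1, and 3 downward, the carbonic anhydrases Car1 and Car2 and the blood group gene Rhd (-1.14 ± 0.23, adjusted p = 0.0149). Of these 5 calls, Ank1 and Rhd held in all 12 fits without 1 library. Those of Car1, Car2 and Hbb-bs were lost without AE9a DMSO replicate 1 or 3, AE9a RE replicate 2 or 3, WT RE replicate 1 or WT DMSO replicate 3, and those of Car1 and Car2 also without AE9a DMSO replicate 2, AE9a RE replicate 1, WT DMSO replicate 1 or WT RE replicate 3, and that of Car1 also without WT RE replicate 2 (adjusted p = 0.051 to 0.13).

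Several genes responded in 1 genotype and hardly or oppositely in the other. Prune2, a scaffold protein best known from neurons, went from 29.4, 45.0 and 49.0 CPM to 74.6, 117 and 127 CPM in AE9a cells and from 40.9, 51.1 and 37.2 CPM to 25.3, 43.3 and 28.1 CPM in WT cells. Every AE9a pair rose and every WT pair fell, and the blocked difference was 1.80 ± 0.11 (adjusted p = 0.000533). Genes of this paragraph were chosen from those whose AE9a and WT pair differences did not overlap, so this separation is by selection. Ghr, the growth hormone receptor, went from 0.950, 1.76 and 1.10 CPM to 6.13, 6.77 and 7.49 CPM in AE9a cells and from 2.30, 0.557 and 1.07 CPM to 1.29, 0.905 and 1.14 CPM in WT cells, where pairs disagreed (2.59 ± 0.41, adjusted p = 0.0178). Cpeb1, a regulator of mRNA polyadenylation, rose on average (1.75 ± 0.36, adjusted p = 0.0149), from 0.850, 1.87 and 2.66 CPM to 7.83, 13.2 and 16.9 CPM in AE9a cells and from 1.01, 0.446 and 1.22 CPM to 1.79, 0.776 and 1.74 CPM in WT cells. Each pair rose, and the rise was larger in AE9a cells (blocked difference 2.16 ± 0.27, adjusted p = 0.00876). Ccl7, a monocyte chemokine, went from 19.6, 19.9 and 31.9 CPM to 47.7, 38.2 and 72.0 CPM in AE9a cells and from 9.09, 4.96 and 4.64 CPM to 4.66, 4.78 and 2.33 CPM in WT cells (adjusted p = 0.00755).

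Other differences lay on the side of WT cells. Igfbp5, an insulin-like growth factor binding protein, stood at 19.5, 83.7 and 47.7 CPM in AE9a DMSO and 30.2, 82.4 and 62.4 CPM in AE9a RE libraries, and rose from 0.842, 0.167 and 0.765 CPM to 33.5, 2.20 and 5.97 CPM in WT cells. The WT libraries did not overlap, and the blocked difference was -4.12 ± 0.41 (adjusted p = 0.00357). Bmp7, a bone morphogenetic protein, went from 32.3, 43.3 and 35.5 CPM to 46.0, 53.4 and 51.7 CPM in AE9a cells and from 0.168, 0.0557 and 0.306 CPM to 1.91, 0.517 and 1.14 CPM in WT cells (adjusted p = 0.0196). Cd34, the stem and progenitor cell antigen, stood at 62.9 to 74.9 CPM in AE9a DMSO and 58.0 to 66.9 CPM in AE9a RE libraries and fell from 87.5 to 112 CPM to 44.4 to 65.9 CPM in WT cells. Its average change was -0.53 ± 0.10 (adjusted p = 0.0114) and the blocked difference 0.75 ± 0.09 (adjusted p = 0.00876). Without WT replicate 2 and without the block, Ghr (2.84, adjusted p = 0.0219) and Prune2 (1.91, adjusted p = 0.0256) passed, and Hbb-bs, Cpeb1, Ccl7, Igfbp5 and Bmp7 did not.

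Dividing-cell genes also differed by genotype with the block. Of 25 mitosis genes 15 fell more in AE9a than in WT cells and 0 fell less, and of 26 replication genes 10 and 0, against 1.39% of all tested genes with a value below 0. Without WT replicate 2 and without the block the numbers that fell more were 3 and 4, against 90 of 15697 tested genes with a value below 0. Over the 12 libraries without the block edgeR and DESeq2 called 0 of either list, with 1 mitosis and 4 replication genes lower by edgeR's unadjusted p. Mki67, the proliferation antigen, changed by -0.53 in AE9a and -0.09 in WT cells (blocked difference -0.41 ± 0.08, adjusted p = 0.0275). Lysosome genes differed the other way: by the blocked interaction 5 of 25 had a higher and 0 a lower value in AE9a cells, against 1.74% of all tested genes. Without WT replicate 2 and without the block 5 were higher, against 159 of 15697 tested genes with a value above 0. Over the 12 libraries without the block edgeR called 0 of them, with 8 higher by unadjusted p and 2 higher by DESeq2. Atp6v0a1, a subunit of the lysosomal proton pump, changed by 0.42 in AE9a and 0.02 in WT cells (blocked difference 0.40 ± 0.06, adjusted p = 0.0156), and Hexa, a ganglioside-degrading enzyme, by 0.18 and -0.23 (0.42 ± 0.08, adjusted p = 0.0326). For ribosome biogenesis genes the blocked edgeR interaction called 0 of 26 (0 by unadjusted p), and for the HOXA and MEIS1 list 0 of 17 (2 by unadjusted p, and 1 call without WT replicate 2), which does not show that the genotypes responded alike.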

How the data were processed

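RNA-seq of cKit+ mouse bone marrow cells was used, 12 of 18 libraries in 4 groups of 3. The values are raw counts of fragments per gene as the authors deposited them, in 2 tables of 41079 genes on GRCm39 that were joined by gene name. RefSeq exons were summed to genes from primary alignments of read pairs by featureCounts 1.6.2 with no strand setting, per the file headers. The submitters' processing notes list featureCounts as 2.0.3, and also HISAT2 2.1.0, DESeq2, fastp 0.23.2 and FastQC 0.11.9. The featureCounts versions differ and which one was used is not known. Genes that overlap, lie antisense or have near-identical copies may share or lose fragments. Of the genes, 27323 had a fragment in the 12 libraries. 0 columns were unmatched and 0 pairs of libraries were identical. The totals, 16053727 to 27207748 fragments, limit precision for genes of a few CPM.

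In edgeR 4.0.16 (R 4.3.3), 15439 genes passed filterByExpr and were scaled by TMM and fitted over 4 groups by quasi-likelihood. The average of the AE9a and WT changes and their difference (the interaction) were tested by two-sided F tests with Benjamini-Hochberg adjustment over all genes and a threshold of 0.05. SE is the log2 change divided by the root of F. CPM use TMM-scaled totals. The biological coefficient of variation was 0.214, and 0.0686 with the replicate number within genotype as a block. Same-numbered DMSO and RE libraries correlated in their deviations from group means by 0.332, 0.23 and 0.303 in AE9a and 0.626, 0.833 and 0.62 in WT cells. The pairing comes from replicate numbers in the labels. In WT cells replicates 1 and 3 also correlated across numbers (0.575 and 0.562), so the numbers there mainly set replicate 2 apart. Blocked values stand beside results whose call or count they change.

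Also run were RLE and upper-quartile scaling, DESeq2 1.42.0, limma-voom (limma 3.58.1) with and without sample quality weights, other filters, an additive model, all 18 libraries together, each genotype alone, leaving out each library, and leaving out WT replicate 2 (with the block, added after seeing the data). The fitting script was tested on simulated data.

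Members and the 25 gene lists were chosen with earlier results of these data known. Genes named were the 12 largest rises and falls of the average effect with at least 5 CPM in the highest group, called and in 1 direction in 6 of 6 pairs, 8 differences in each direction, up to 4 genes per list and 18 fixed genes. Those differences were called, had at least 5 CPM in the highest group and no overlap between AE9a and WT pair differences. Some others (Hoxa3, Hoxa4, Hoxa5, Pola1, Cd34, Sptb, genes of short call lists and other list members) were chosen after their values were seen. Some genes that the rule takes are not reported here. Gene positions are from the deposited tables. Promoter windows are RefSeq sequences on GRCm38.p6, the first listed per gene symbol, with no conversion between builds. They may not lie at the starts of the genes as counted. They matched 11566 tested genes, under 80%, so CpG content was not compared between genes that rose and fell.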

Additional observations from a re-analysis of the deposited data

Results flagged for a closer look

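Genes are given here because a test of the difference between the genotypes' responses to RE passed with the replicate number as a block. None of them passed without it over the 12 libraries (edgeR called 1 gene there, with 924 genes under an unadjusted p of 0.05 and 100 called by DESeq2). Values are the log2 change in AE9a cells minus that in WT cells. They share the fit's dependence on the pairing of replicates.

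Values below 0, a lower response in AE9a cells, were those of Igfbp5 (-4.12, adjusted p = 0.00357), Pkhd1l1 (-2.91, adjusted p = 0.0339), Cldn13, a claudin (-2.84, adjusted p = 0.0194), Dnase2b, an acid nuclease (-2.41, adjusted p = 0.00321), Hbb-bs (-2.30, adjusted p = 0.0124), Bmp7 (-2.22, adjusted p = 0.0196) and Smtnl2 (-2.22, adjusted p = 0.0469). For Dnase2b the levels were 57.3, 79.9 and 62.9 CPM in AE9a DMSO, 84.6, 96.3 and 92.4 CPM in AE9a RE, 0.674, 1.56 and 1.07 CPM in WT DMSO and 2.97, 16.2 and 5.97 CPM in WT RE libraries, so each pair rose and the WT rise was the larger in log2.

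Values above 0, a higher response in AE9a cells, were those of Ghr (2.59, adjusted p = 0.0178), Cpeb1 (2.16, adjusted p = 0.00876), Etl4 (2.1, adjusted p = 0.0157), Rnls (2.02, adjusted p = 0.0469), Dgki, a diacylglycerol kinase (2.0, adjusted p = 0.00384), Ccl7 (1.81, adjusted p = 0.00755), Prune2 (1.80, adjusted p = 0.000533) and Epcip (1.59, adjusted p = 0.0124). Etl4 went from 1.75, 1.79 and 7.88 CPM to 15.1, 20.7 and 45.1 CPM in AE9a cells and from 2.13, 0.446 and 1.94 CPM to 4.21, 0.840 and 3.26 CPM in WT cells, upward in every pair. Without WT replicate 2 and without the block, Ghr, Prune2 and Epcip passed.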

How the results depend on the processing

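The average RE effect (1725 calls) gave 1670 to 1796 calls with RLE or upper-quartile scaling, limma-voom, a stricter filter or an additive model. Other settings gave 1005 with no low-count filter, 904 with all 18 libraries, 2600 by DESeq2, 4966 with sample quality weights, 5589 with the replicate block, 4844 without WT replicate 2, 5793 with both changes and 677 to 3107 without 1 library. The interaction (1 call) gave 100 by DESeq2, 213 with quality weights, 482 with the replicate block, 0 with all 18 libraries (676 under an unadjusted p of 0.05), 249 without WT replicate 2, 1179 with both changes and 0 to 3 without 1 library. The effect in AE9a cells (947 calls) gave 1877, 5481, 4742, 500, 5116 and 6047 in the same order, 445 with no filter, 4964 in a fit of AE9a alone, 6295 there with the replicate block and 58 to 1977 without 1 library. The share of higher calls was 64.7% in the joint fit and 49.0% in AE9a alone. The effect in WT cells (59 calls) gave 509, 667, 2088, 29, 1074 and 2200 in that order, 0 in WT alone, 644 there with the replicate block and 10 to 284 without 1 library. Quality weights were 0.139 and 0.108 for the WT replicate 2 libraries and 1.05 to 2.4 for the others. Changes of sign among named genes were those of Gfi1 (-0.26), at 0.136 without WT DMSO replicate 2 (adjusted p = 0.839) and down to -0.747 without WT RE replicate 2, and of Stfa3 (3.22), at -0.035 without WT RE replicate 2 (adjusted p = 0.997) and up to 6.856 without WT DMSO replicate 2. Neither passed by edgeR over the 12 libraries without the block. The cause of these differences was not tested.

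Depth limits genes of a few CPM: Hoxa6, Hoxa7 and Hoxa9, for example, stood below 10 CPM in all 12 libraries. With 3 libraries a group and 1 WT pair that stands apart, differences between genotypes can be missed, and a p above the threshold does not show that a gene did not respond. Of 102 calls of the average effect among listed and named genes, 48 held without each library in turn. RE's target, dose and time are not stated in the labels.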

Other observations

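Some lymphoid and dendritic genes fell. Without the block 1 of 13 B lineage genes fell, Dntt, and 2 of 17 dendritic and MHC class II genes, against 4.66% of all tested genes, and 0 rose. With the block 4 of 13 and 4 of 17 fell, against 15.6%, and 0 and 1 rose, against 20.6%. Siglech, the lectin that defines plasmacytoid dendritic cells, stood at 4.85, 3.40 and 6.17 CPM in AE9a DMSO and 2.21, 1.08 and 1.98 CPM in AE9a RE libraries, and at 3.82, 0.279 and 5.56 CPM in WT DMSO and 1.51, 0.0646 and 1.14 CPM in WT RE libraries. Each pair fell (-1.64 ± 0.16 with the replicate block, adjusted p = 0.000143, and -1.63 ± 0.62 without it, adjusted p = 0.124). Dntt, the terminal transferase of early lymphoid progenitors, fell by 1.33 ± 0.36 (adjusted p = 0.0424), from 3.18 to 7.70 CPM to 0.826 to 1.66 CPM in AE9a cells, while WT replicate 2 went the other way, from 1.84 to 4.01 CPM. Its call was lost in 9 of 12 fits without 1 library, and kept without AE9a DMSO replicate 2 or either library of WT replicate 2. H2-DMa, an MHC class II chaperone, fell by 0.39 ± 0.07 (adjusted p = 0.00819), and with Tcf4 makes up the dendritic genes called without the block.

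Gzmb, the cytotoxic protease granzyme B, was the main part of the T and NK list's summed level. It went from 320, 477 and 474 CPM to 827, 978 and 1056 CPM in AE9a cells and from 575, 158 and 576 CPM to 819, 170 and 713 CPM in WT cells. The rise was larger in AE9a cells by the blocked interaction (0.87 ± 0.11, adjusted p = 0.00976). Of the 9 tested genes of that list edgeR called 0, with 0 higher and 1 lower by unadjusted p. With the replicate block 2 rose and 2 fell, against 20.6% and 15.6% of all tested genes.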
